A study of Mus musculus with 6 samples.

Results

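The BCL2 family decides whether the outer membrane of mitochondria is opened during apoptosis. Survival proteins (Bcl2, Bcl2l1, Bcl2l2 and Mcl1) hold the membrane closed by binding the effectors Bax and Bak1, which otherwise assemble into pores and release cytochrome c. BH3-only proteins (Bid, Bcl2l11, Bbc3 and Pmaip1) start the process by occupying the groove of the survival proteins or by activating the effectors directly. Apoptosis of this kind is distinct from necroptosis, the Ripk3-dependent form of cell death that the series title names. The 10 genes described here were taken by their symbols from the 14515 genes of the deposited table, and all 10 were present and tested.

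RNA was sequenced in 6 libraries of mouse muscle stem cells, 2 labelled wild type (wt), 2 labelled mdx and 2 labelled mdx/Ripk3mKO. The mdx mouse, used to model Duchenne muscular dystrophy, carries a mutation of dystrophin, and the labels do not spell out Ripk3mKO, the cells it affects, or the age of the animals. The sample labels describe quiescent satellite cells that were sorted and used at once, between 10000 and 20000 cells a library. The series text instead describes activated wild-type cells that had lain for 72 hours below wt, mdx or mdx/Ripk3mKO cells in a transwell, so the genotype may be that of cells that were not sequenced. The labels do not say whether both libraries of a group are from different animals or cultures. The p-values therefore rest on the scatter between these libraries alone, and that scatter may be technical.

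The scaled counts summed to 20611974 to 21037153 a library. The depth estimated before scaling was 17994044 to 25339251 reads, with both mdx/Ripk3mKO libraries deepest. Ripk3 lay between 17 and 45 scaled counts and did not separate the groups, so it does not check the labels. All 7 markers of muscle stem cells and myoblasts were present, at a sum of 8255 to 9491 CPM, the counts scaled to a common library total. Most of it came from the muscle actin Acta1 (3168 to 4058 CPM), desmin (Des, 1581 to 1829) and the differentiation factor Myog (1300 to 1698). Myod1, a factor of committed myoblasts, was at 904 to 1137 CPM and the proliferation marker Mki67 at 660 to 820, while Pax7, the marker of satellite cells, was at 84.6 to 103. These values are not per length, so they do not rank the genes. Markers of proliferation and differentiation were thus present in all 6 libraries, which the sample labels call quiescent. Of the leukocyte markers 3 of 9 were in the table, at a sum of 1.86 to 2.76 CPM, with Ptprc, Adgre1 and Cd3e among those not listed. Endothelial markers summed to 3.52 to 4.99 CPM (5 of 6 listed), fibro-adipogenic markers to 2.70 to 3.93 (3 of 5), Schwann cell markers to 4.53 to 6.70 (2 of 4) and pericyte markers to 80.3 to 102 (3 of 5). The pericyte sum was 80.3 and 84.9 CPM in mdx and 93.3 to 102 elsewhere. Most of it came from Cspg4 (57.5 to 85.4 CPM) and most of the rest from Pdgfrb. Rgs5 was at only 0.53 to 1.31 CPM, and Myh11 and Kcnj8 were not listed. The sum therefore does not measure the share of pericytes, and its part in the results below was not tested. Library 1 of mdx/Ripk3mKO stood apart in Xist, at 6918 scaled counts against 164 to 666 in the others. The differences of Bcl2, Bcl2l1, Bcl2l11, Pmaip1 and Bbc3 from mdx are also given without that library.

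Every member carries a BH3 region, the short helix through which the family binds itself, and its coding sequence is given below. The stretches are DNA of the coding strand on mm10 from GENCODE M21. Capitals mark the codon of the conserved leucine (methionine in Bcl2l2) and the codons of the glycine (alanine in Bbc3) and aspartate that follow it. The search for the stretches required these residues, so their presence in each one is not a result. Their codons also enter the counts of identical bases below. Pmaip1 is not shown.
Bcl2: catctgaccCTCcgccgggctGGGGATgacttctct
Bcl2l1: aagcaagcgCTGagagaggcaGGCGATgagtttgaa
Bcl2l2: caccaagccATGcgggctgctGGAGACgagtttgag
Mcl1: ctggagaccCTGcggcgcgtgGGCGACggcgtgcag
Bax: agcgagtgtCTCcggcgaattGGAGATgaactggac
Bak1: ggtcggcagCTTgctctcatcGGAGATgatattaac
Bid: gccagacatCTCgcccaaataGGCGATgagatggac
Bcl2l11: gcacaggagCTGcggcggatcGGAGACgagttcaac
Bbc3: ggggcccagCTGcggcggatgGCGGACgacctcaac

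These lie in exon 1 of Bcl2 (chr1:106712575-106712610, minus strand), exon 2 of Bcl2l1 (chr2:152829697-152829732, minus) and exon 3 of Bcl2l2 (chr14:54884508-54884543, plus). In Mcl1 the stretch is in exon 1 (chr3:95659427-95659462, plus), in Bax in exon 3 (chr7:45465997-45466032, minus) and in Bak1 in exon 4 (chr17:27022531-27022566, minus). In Bid it is in exon 4 (chr6:120897289-120897324, minus), in Bcl2l11 in exon 3 (chr2:128147141-128147176, plus) and in Bbc3 in exon 3 (chr7:16313764-16313799, plus). Over the 36 bases the closest pair was Bcl2l11 and Bbc3, both BH3-only genes, with 25 identical bases. The pair with the fewest was Bcl2l2 and Bak1, with 12.

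Levels were compared between genes as TPM, a level per exon length scaled to one total for every library, computed from the scaled counts and the summed exon length of each gene. Bax (BAX, an effector), Mcl1 (a short-lived survival protein) and Bak1 (BAK, the other effector) were the most abundant. Their means over the 6 libraries were 156 ± 10.4, 141 ± 7.96 and 139 ± 7.48 TPM (SD, n = 6). The ranges of these 3 genes overlapped, and Mcl1 exceeded Bak1 in 3 of 6 libraries, so their order is not resolved.

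**Figure D1:**
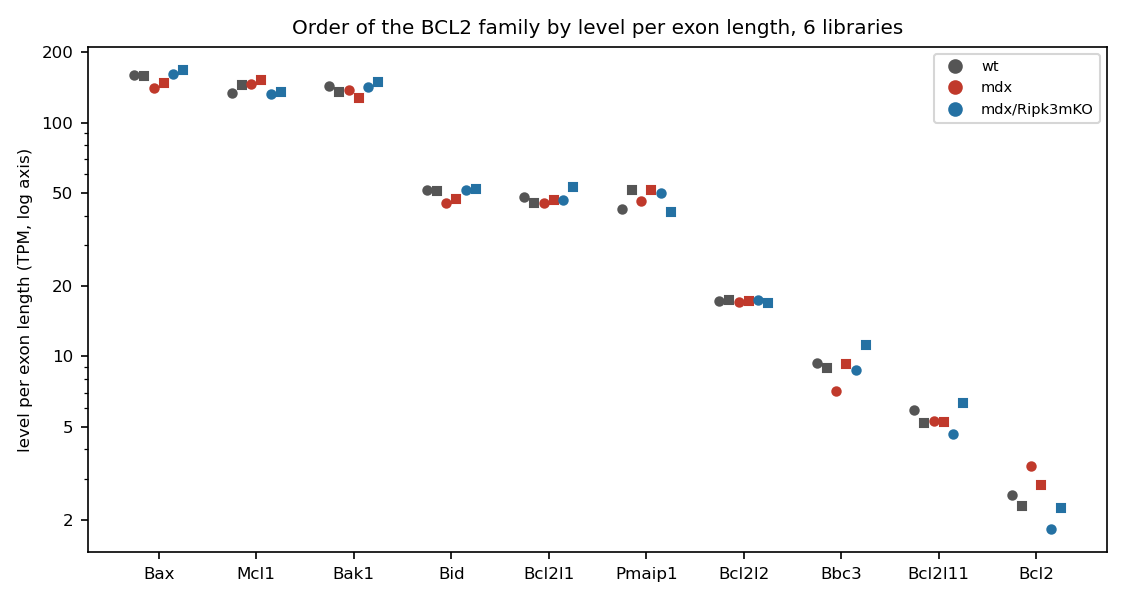
Level of each gene per exon length (TPM, log axis) in the 6 libraries, coloured by labelled group, with circles for library 1 and squares for library 2. Bax, Mcl1 and Bak1 lie between 128 and 168 TPM, Bid, Bcl2l1 and Pmaip1 between 41.6 and 53.1, and Bcl2 lies lowest at 1.82 to 3.40.

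Next came Bid, the BH3-only protein that caspase-8 cleaves (49.8 ± 2.76 TPM), Bcl2l1, which encodes the survival protein BCL-XL (47.6 ± 2.94), and Pmaip1, which encodes NOXA, a BH3-only partner of MCL1 (47.2 ± 4.40). Their ranges also overlapped. Bid lay 2.80-fold below Bak1 in the means, with no overlap. Bcl2l2, which encodes the survival protein BCL-W, was at 17.2 ± 0.232 TPM, 2.74-fold below Pmaip1. Bbc3, which encodes PUMA, a BH3-only protein induced by p53, was at 9.12 ± 1.30 TPM. Bcl2l11, which encodes BIM, a BH3-only protein able to bind all the survival proteins, was at 5.43 ± 0.576 TPM. Bcl2, the founding survival gene, was lowest at 2.52 ± 0.545 TPM, 2.16-fold below Bcl2l11. From Bcl2l2 down, each gene's range lay below that of the gene before it.

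Mcl1 made up 65.1% to 69.4% of the summed TPM of the survival genes, Bcl2l1 21.3% to 25.6%, Bcl2l2 7.89% to 8.80% and Bcl2 0.914% to 1.6%. TPM divides by all annotated exon bases, 9157 for Bcl2 and 1576 for Bax, so a gene whose cells use a shorter transcript is placed too low. Some exon bases are shared with other genes. Bid shares 628 of its 3550 exon bases with Bcl2l13, which lies on the other strand and was at 1888 to 2025 scaled counts. Bcl2l2 shares 594 of 4462 with Gm20521, which lies on the same strand. The library kit keeps strand (SMARTer Stranded Total RNA-Seq), but the sources used here do not give whether counting was stranded.

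**Figure D2:**
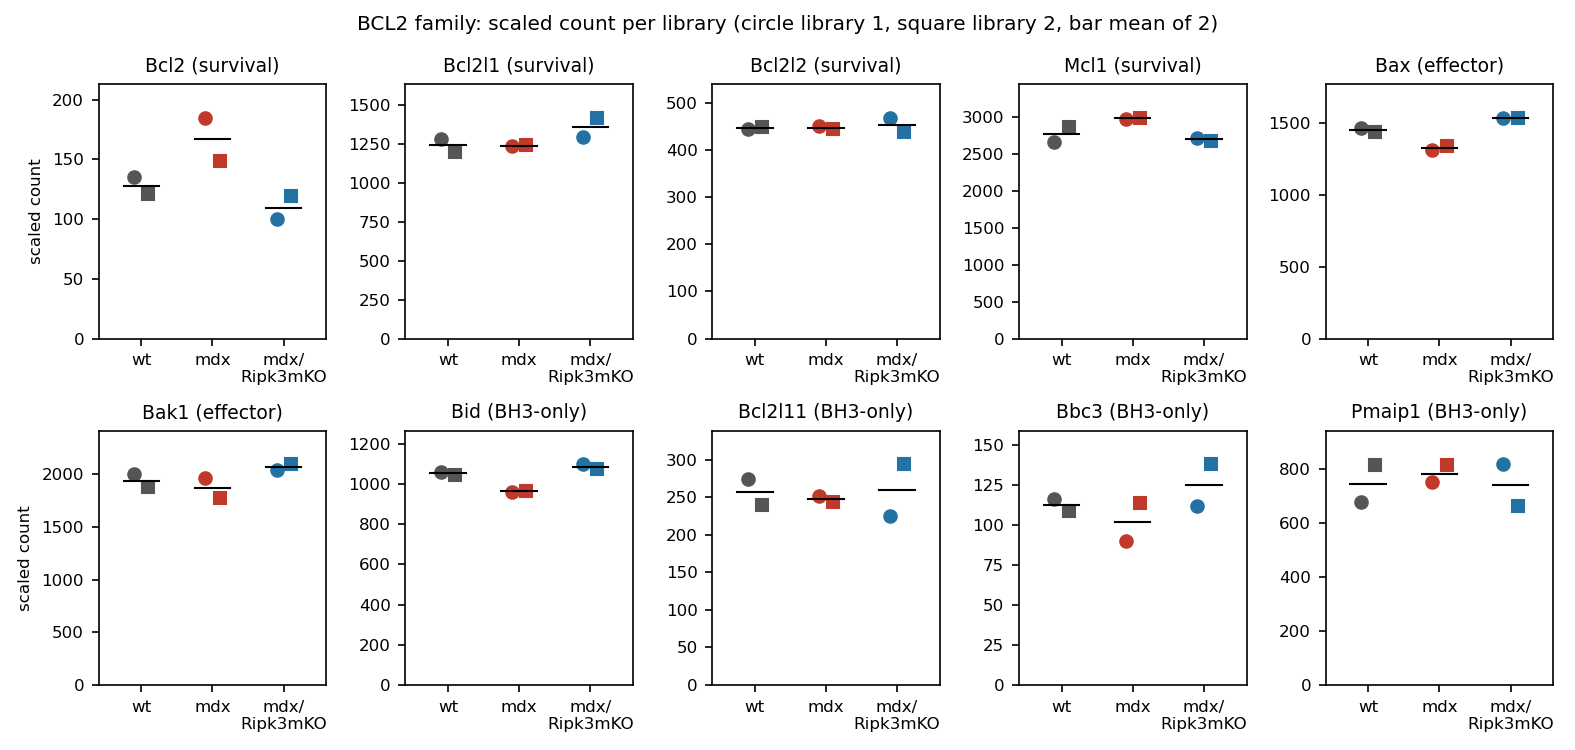
Scaled count of each member (vertical axes from 0, one scale per gene) in each library, with circles for library 1, squares for library 2 and a bar for the mean of 2. Bax and Bid lie lowest and Bcl2 and Mcl1 highest in both mdx libraries, while Bcl2l2 lies between 439 and 469 throughout.

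Among the survival genes, Bcl2 (ENSMUSG00000057329, mm10 chr1:106538178-106714274) differed most between libraries. It was at 135 and 121 scaled counts for wt, 185 and 149 for mdx, then 100 and 119 for mdx/Ripk3mKO. Both mdx libraries were above all others, and both mdx/Ripk3mKO libraries were below both wt libraries. The difference of mdx/Ripk3mKO from mdx was -0.60 ± 0.16 (SE, 95% interval -0.94 to -0.26) on the log2(scaled count + 1) scale, with an unadjusted p of 0.00187 and an adjusted p of 0.159 by limma. Between mdx and wt it was 0.37 ± 0.16 (adjusted p = 0.722), and between mdx/Ripk3mKO and wt -0.23 ± 0.16 (adjusted p = 1). None of the 3 passed the threshold of 0.05 over all 14077 genes tested. Leaving out 1 library at a time moved the first difference between -0.76 and -0.45, the latter without mdx library 1. Without mdx/Ripk3mKO library 1, which stood apart in Xist, it was -0.48. For mdx against wt it was 0.22 without mdx library 1, while for mdx/Ripk3mKO against wt it was -0.10 and -0.35 without mdx/Ripk3mKO library 1 and 2, and -0.15 without wt library 1.

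Mcl1 (ENSMUSG00000038612, chr3:95658788-95663176) was at 2661 and 2869 scaled counts for wt, 2978 and 2993 for mdx, then 2723 and 2682 for mdx/Ripk3mKO. The mdx libraries were again the highest, while wt and mdx/Ripk3mKO overlapped. Mcl1 was at -0.14 ± 0.06 in mdx/Ripk3mKO against mdx (limma, adjusted p = 0.34) and at 0.11 ± 0.06 in mdx against wt (adjusted p = 0.788). For this abundant gene the intervals were narrow, -0.26 to -0.02 and -0.01 to 0.23. The difference of mdx from wt was 0.06 without wt library 1 and 0.17 without wt library 2.

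Bcl2l1 (ENSMUSG00000007659, chr2:152780668-152831728) was at 1280 and 1198 for wt, 1231 and 1238 for mdx, then 1291 and 1416 for mdx/Ripk3mKO. The mdx/Ripk3mKO libraries were above the other 4, by 0.13 ± 0.07 against both mdx and wt (limma, adjusted p = 0.475 and 1). Without mdx/Ripk3mKO library 1 these differences were 0.20 and 0.19, and without library 2 they were 0.06 and 0.06. The difference from wt was 0.08 without wt library 2. Bcl2l2 (ENSMUSG00000089682, chr14:54883377-54888234) was at 445 and 450 for wt, 452 and 444 for mdx, then 469 and 439 for mdx/Ripk3mKO. Its 3 groups overlapped, and the interval of the difference of mdx from wt was -0.18 to 0.18.

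Of the effectors, Bax (ENSMUSG00000003873, chr7:45461697-45466898) was at 1468 and 1442 scaled counts for wt, 1312 and 1339 for mdx, then 1535 and 1539 for mdx/Ripk3mKO. No library of one group overlapped another group, with mdx lowest and mdx/Ripk3mKO highest. Bax was at 0.21 ± 0.06 in mdx/Ripk3mKO against mdx (95% interval 0.09 to 0.34, limma, unadjusted p = 0.00243, adjusted p = 0.166), a level 16.0% above mdx that did not pass the threshold. With any 1 library left out, the one with high Xist included, it lay between 0.20 and 0.23. Against wt, mdx was at -0.13 ± 0.06 (adjusted p = 0.747) and mdx/Ripk3mKO at 0.08 ± 0.06 (adjusted p = 1, and 0.05 with the trend of GC content and length removed).

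Bak1 (ENSMUSG00000057789, chr17:27019810-27029009) was at 2000 and 1877 for wt, 1966 and 1779 for mdx, then 2045 and 2096 for mdx/Ripk3mKO. The mdx/Ripk3mKO libraries were the highest, and mdx overlapped wt. The difference of mdx/Ripk3mKO from mdx was 0.15 ± 0.06 (limma, adjusted p = 0.397), and it was 0.07 without mdx library 2, the lowest library.

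Of the BH3-only genes, Bid (ENSMUSG00000004446, chr6:120892854-120916853) was at 1060 and 1043 scaled counts for wt, 959 and 966 for mdx, then 1098 and 1074 for mdx/Ripk3mKO. As with Bax, the 3 groups did not overlap, and mdx was lowest. The share of all genes whose 3 groups separate in this way, as those of Bcl2, Bax and Bid did, was not counted. Bid was at 0.17 ± 0.06 in mdx/Ripk3mKO against mdx (limma, adjusted p = 0.303, and 0.16 to 0.19 with any 1 library left out) and at -0.13 ± 0.06 in mdx against wt (adjusted p = 0.782).

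The remaining BH3-only genes overlapped in all 3 comparisons. Bcl2l11 (ENSMUSG00000027381, chr2:128126038-128162547) was at 274 and 240 for wt, 252 and 244 for mdx, then 225 and 294 for mdx/Ripk3mKO. Pmaip1 (ENSMUSG00000024521) was at 677 and 812, 750 and 814, and 817 and 661 in the same order. For both genes the libraries of mdx/Ripk3mKO were farther apart than the group means. The difference of mdx/Ripk3mKO from mdx was 0.05 for Bcl2l11 and -0.09 for Pmaip1. Without mdx/Ripk3mKO library 1 these were 0.24 and -0.24. Bbc3 (ENSMUSG00000002083, chr7:16309616-16318205) was at 116 and 109 for wt, 90 and 114 for mdx, then 112 and 138 for mdx/Ripk3mKO. Its difference of mdx/Ripk3mKO from mdx, 0.29 ± 0.17, had an interval from -0.07 to 0.66 (limma, adjusted p = 0.535). It was 0.12 when mdx library 1 was left out and 0.46 when mdx library 2 was. Leaving out mdx/Ripk3mKO library 1 gave 0.44, and leaving out its library 2 gave 0.14.

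**Figure D3:**
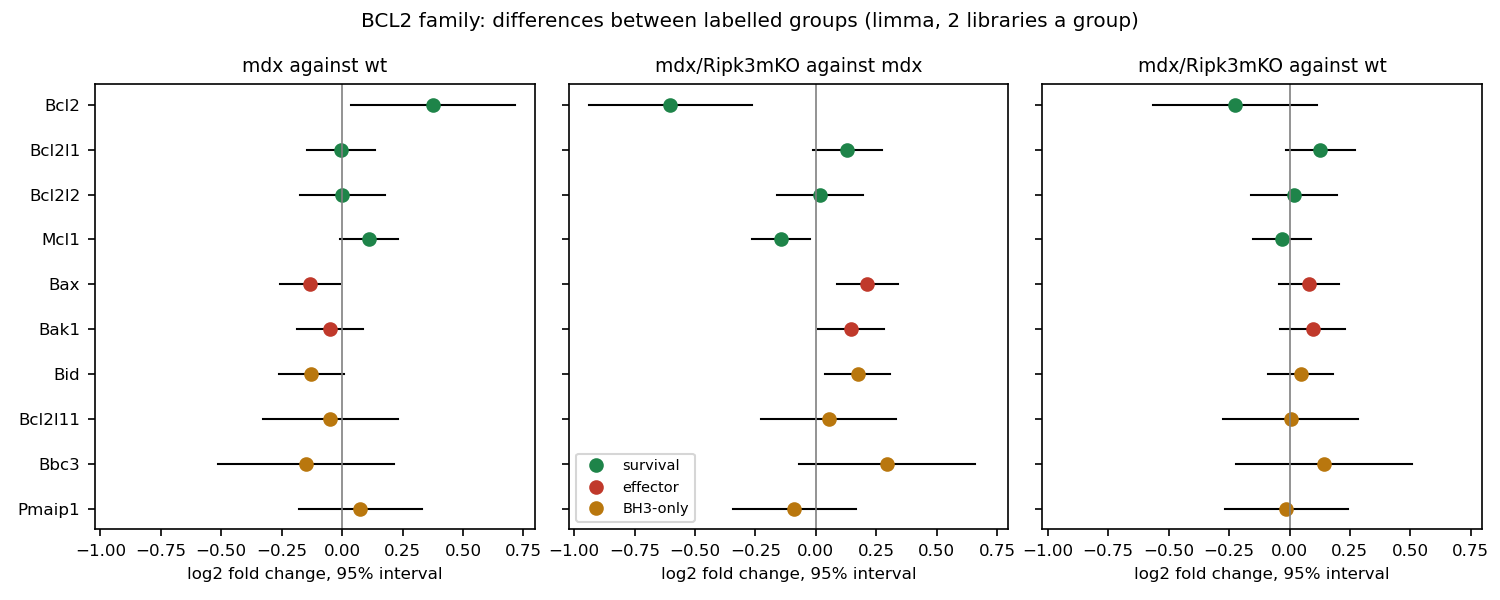
Log2 fold change of each member with its 95% interval in the 3 comparisons (limma on log2(scaled count + 1), 2 libraries a group), coloured by role. The intervals of Bcl2, Mcl1, Bax, Bak1 and Bid exclude 0 before adjustment in mdx/Ripk3mKO against mdx, and none of the 30 values passed after adjustment.

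Over the family, 0 of 10 members passed the adjusted threshold in any comparison by limma, the tool that was run. In mdx/Ripk3mKO against mdx 0.206% of all genes passed, in mdx against wt 0.0071%, and in mdx/Ripk3mKO against wt 0 of 14077. The 29 genes that passed in mdx/Ripk3mKO against mdx were 12 higher (0.0852%) and 17 lower (0.121%). An unadjusted p under 0.05 was found for 5 of 10 members in mdx/Ripk3mKO against mdx, where 11.6% of all genes had one. Of the 5, 3 were higher (5.77% of all genes) and 2 lower (5.87%). In mdx against wt it was found for 2 of 10 (6.46% of all genes), Bcl2 higher (3.44%) and Bax lower (3.02%). In mdx/Ripk3mKO against wt it was found for 0 of 10 (3.32% of all genes, 1.24% higher and 2.09% lower). The F-test over the 3 groups gave 0 members past the adjusted threshold (0.0781% of all genes) and 3 with an unadjusted p under 0.05 (Bcl2, Bax and Bid, 7.87% of all genes).

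Groups did not overlap for 6 of 10 members in mdx/Ripk3mKO against mdx, where the share of all genes was 41.3%. Of the 6, 4 were higher (21.0% of all genes) and 2 lower (20.3%). For mdx against wt it was 4 of 10 (35.9% of all genes), 2 higher (17.6%) and 2 lower (18.3%). For mdx/Ripk3mKO against wt it was 5 of 10 (29.4%), 4 higher (14.4%) and 1 lower (15.1%). The log2 difference was above 0 for 7 of 10 members in mdx/Ripk3mKO against mdx (49.2% of all genes), for 4 in mdx against wt (49.0%) and for 7 in mdx/Ripk3mKO against wt (50.5%). The median log2 difference over the members was 0.09 in mdx/Ripk3mKO against mdx, -0.03 in mdx against wt and 0.03 in mdx/Ripk3mKO against wt, and that of all genes was 0.00 in each. The 2 mdx comparisons share the mdx libraries, so their opposite signs are not separate evidence.

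Both mdx libraries lay outside the range of the other 4 for 4 members, a count chosen after the values were seen, and this held for 20.5% of all genes. Bcl2 and Mcl1, survival genes, were the higher pair (9.65% of all genes), and Bax and Bid, which promote death, the lower pair (10.9%). Per exon length, the summed survival genes stood to the summed effectors at 0.665 and 0.717 for wt, 0.765 and 0.794 for mdx, then 0.655 and 0.652 for mdx/Ripk3mKO. The mdx libraries were highest in this ratio and mdx/Ripk3mKO lowest. The ratio of Bax to Bcl2 was 63.2 and 69.2 for wt, 41.2 and 52.2 for mdx, then 89.2 and 75.1 for mdx/Ripk3mKO. These were the ratios in which all groups separated, and the others computed did not separate them all. For Mcl1 to Bak1, wt overlapped both mdx and mdx/Ripk3mKO. For Bcl2l1 to Bax, and for summed BH3-only to summed survival genes, wt overlapped mdx/Ripk3mKO. The mdx libraries were highest in the former and lowest in the latter. All these ratios restate the members above and were not tested. How often ratios of other genes separate the groups was not counted.

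**Figure D4:**
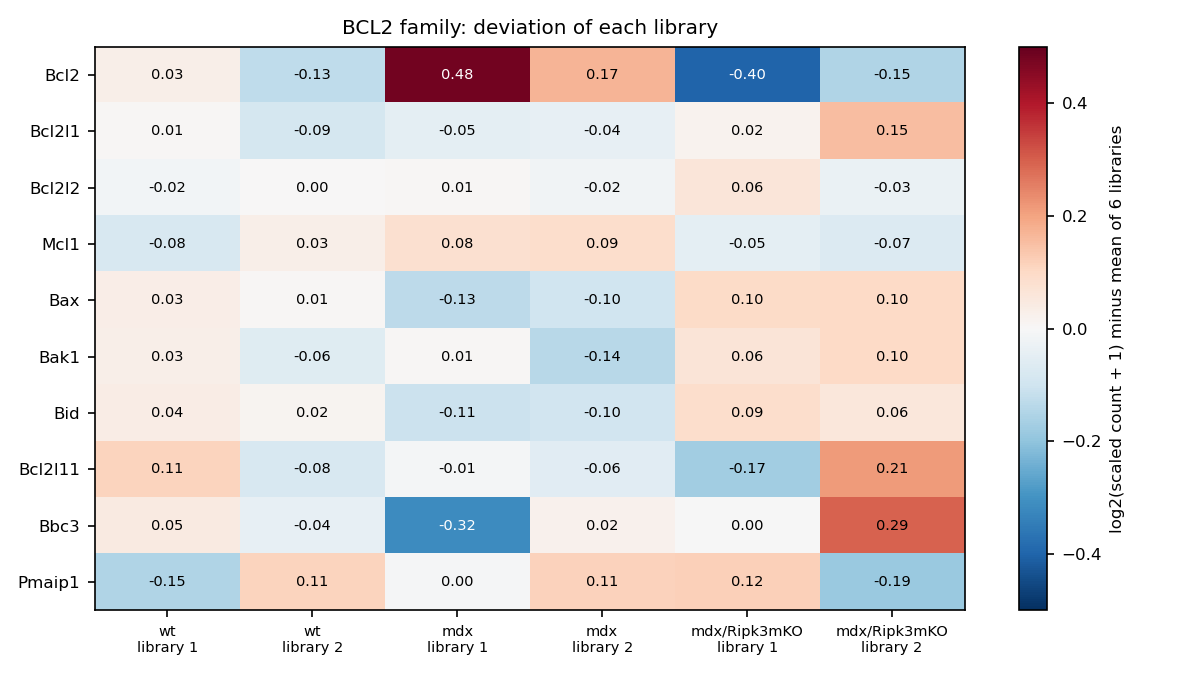
Deviation of each library from the gene's mean over 6 libraries, in log2(scaled count + 1), for the 10 members (red above, blue below). Bcl2 reaches 0.48 and 0.17 for mdx against -0.40 and -0.15 for mdx/Ripk3mKO, Bax and Bid share one pattern, and Bcl2l11 and Pmaip1 take opposite signs in both wt and both mdx/Ripk3mKO libraries.

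Over the 6 libraries, which all members share, Bax and Bid had a Pearson correlation of 0.98, and Bcl2 was at -0.90 with Bax and -0.91 with Bid. Bcl2l11 and Pmaip1 had a correlation of -0.95 over the 6 libraries, and in each of the 3 groups the library higher in one was lower in the other. These are descriptions over 6 points.

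How far the libraries of a group differed was unlike between members, and each value below rests on 3 pairs. The coefficient of variation between the 2 libraries of a group, pooled over the 3 groups, was 1.11% for Bax and 1.16% for Bid, where counting error alone gives 2.66% and 3.13%. It was 2.83% for Bcl2l2 against 4.73%. It was 13.1% for Bbc3 against 9.55%, 12.1% for Bcl2 against 8.74%, 12.2% for Bcl2l11 against 6.31% and 11.8% for Pmaip1 against 3.66%. For Bak1 it was 4.93% against 2.27%, for Bcl2l1 4.64% against 2.82% and for Mcl1 3.14% against 1.89%. Pmaip1 was thus the member whose libraries scattered most beyond counting error, and Bax, Bid and Bcl2l2 varied less than that error. The counting error was computed from depths estimated from the table and covers counting only.

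**Figure D5:**
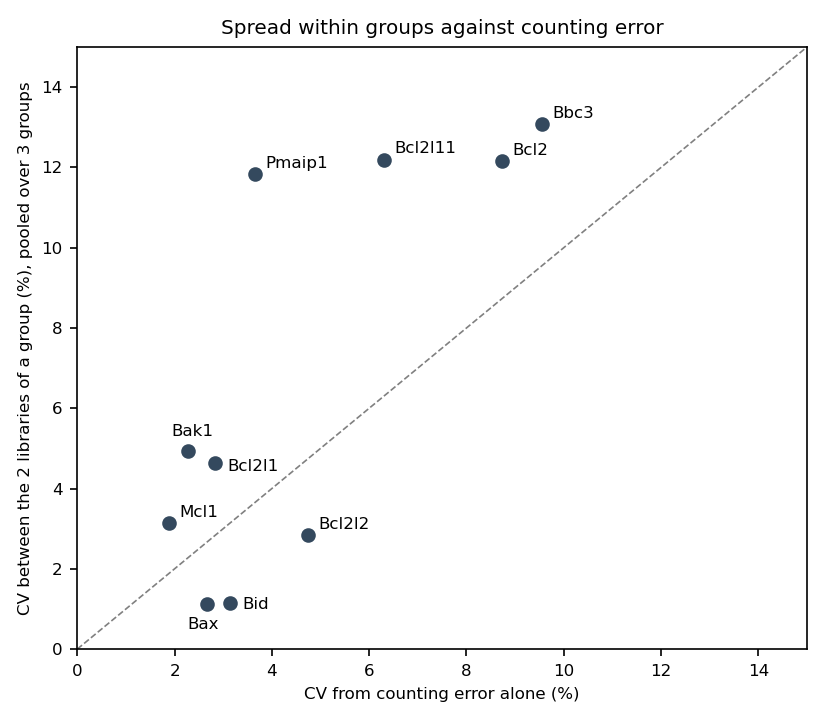
Coefficient of variation between the 2 libraries of a group, pooled over 3 groups (vertical), against that expected from counting error alone (horizontal), in percent, with a dashed line where they are equal. Pmaip1, at 11.8% against 3.66%, lies farthest above the line, and Bax, Bid and Bcl2l2 lie below it.

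Base composition moved with the groups. Across 12378 protein-coding genes, pooled although genes are no replicates, the difference of mdx/Ripk3mKO from mdx had a Spearman correlation of 0.33 with the GC content of the transcripts, and that of mdx from wt -0.19. For mdx/Ripk3mKO against wt it was 0.22. The correlation with exon length was -0.17 for mdx/Ripk3mKO against mdx, -0.22 for mdx/Ripk3mKO against wt and 0.01 for mdx against wt. Among the members the GC content was lowest for Pmaip1 (41.6%), then 45.7% for Bcl2, 48.9% for Bcl2l11, 51.2% for Mcl1 and 51.3% for Bid. It was 53.9% for Bcl2l1, 54.2% for Bcl2l2, 57.3% for Bak1, 59.0% for Bax and 67.1% for Bbc3. The trend of GC content and exon length was then removed. In mdx/Ripk3mKO against mdx, Bcl2 was at -0.53, Bax at 0.18, Bid at 0.19 and Mcl1 at -0.13. Bak1 was at 0.12 in place of 0.15. Bbc3 then stood at 0.09 in place of 0.29, and Pmaip1 at 0.02 in place of -0.09. In that fit the median of all genes was 0.04 in mdx/Ripk3mKO against mdx, -0.02 in mdx against wt and 0.02 in mdx/Ripk3mKO against wt. Its zero is thus shifted, and Pmaip1 at 0.02 lay below the median of all genes in mdx/Ripk3mKO against mdx. No member passed in that fit either.

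Promoters are shown for Bax and Bid, whose levels varied together, and for Bcl2 and Mcl1, which varied against them. They run from 250 bases before to 50 after the start in RefSeq (GRCm38.p6). Capitals mark GGGCGG on either strand, known as the GC box, and CANNTG, known as the E-box.
Bax: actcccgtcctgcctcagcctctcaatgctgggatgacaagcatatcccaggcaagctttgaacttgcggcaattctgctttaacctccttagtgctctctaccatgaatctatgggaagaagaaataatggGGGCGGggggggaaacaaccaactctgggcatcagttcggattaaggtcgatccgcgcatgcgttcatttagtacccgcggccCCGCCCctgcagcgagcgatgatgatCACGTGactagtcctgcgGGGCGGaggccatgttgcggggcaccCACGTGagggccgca
Bid: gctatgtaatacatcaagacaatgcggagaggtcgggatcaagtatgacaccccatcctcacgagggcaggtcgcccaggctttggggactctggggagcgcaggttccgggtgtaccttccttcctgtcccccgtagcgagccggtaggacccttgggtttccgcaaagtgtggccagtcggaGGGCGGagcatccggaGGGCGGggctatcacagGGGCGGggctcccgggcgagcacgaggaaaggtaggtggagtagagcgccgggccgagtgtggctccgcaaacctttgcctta
Bcl2: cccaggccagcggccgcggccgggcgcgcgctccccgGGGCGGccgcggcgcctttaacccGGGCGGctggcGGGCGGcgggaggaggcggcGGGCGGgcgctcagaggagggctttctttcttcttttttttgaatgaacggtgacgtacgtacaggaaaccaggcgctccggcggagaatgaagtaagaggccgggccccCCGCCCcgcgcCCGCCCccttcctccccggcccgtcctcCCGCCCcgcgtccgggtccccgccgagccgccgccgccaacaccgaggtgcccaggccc
Mcl1: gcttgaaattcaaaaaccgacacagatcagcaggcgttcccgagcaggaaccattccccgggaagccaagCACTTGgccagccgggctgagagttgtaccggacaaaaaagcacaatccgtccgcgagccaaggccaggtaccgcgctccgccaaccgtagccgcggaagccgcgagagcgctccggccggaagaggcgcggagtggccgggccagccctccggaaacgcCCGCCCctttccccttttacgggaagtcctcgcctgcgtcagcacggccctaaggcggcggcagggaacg

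These are chr7:45466849-45467148, chr6:120916775-120917074 and chr1:106714241-106714540 on the minus strand, and chr3:95658471-95658770 on the plus strand. The GC box was found 3 times in Bax, 3 times in Bid, 7 times in Bcl2 and 1 time in Mcl1, and 35.7% of 32851 promoters of this length hold it. The E-box was found 2 times in Bax, 1 time in Mcl1 and not in the windows of Bid or Bcl2, and 72.3% of promoters hold it. The windows of Bax, Bid, Bcl2 and Mcl1 were 57.3%, 63.3%, 76.0% and 65.7% GC, against a median of 52.7% over all promoters. The matches are letters in these windows and were not tested against the levels.

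By the likeness of their values over the 6 libraries, the genes closest to Bcl2 were Ankfy1 (Pearson r = 0.994), the actin-binding Cotl1 (0.989) and the septin Sept8 (0.988). Closest to Bax were Hexim1, an inhibitor of transcription elongation (0.995), the tRNA methyltransferase Trmt1 (0.992) and Spred3 (0.991). Closest to Bid were the lysosomal channel Mcoln1 (0.996), the ubiquitin-conjugating enzyme Ube2l3 (0.995) and again Hexim1 (0.993). With 6 libraries such values are common: 93, 308 and 294 of 10555 genes had an r above 0.9 with Bcl2, Bax and Bid.

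Of 16 other BCL2 family genes 7 were tested, and none passed in any comparison. Bok, an effector-like relative of Bax, was at 656 and 588 scaled counts for wt, 532 and 594 for mdx, then 648 and 719 for mdx/Ripk3mKO, a difference of 0.28 ± 0.09 between the last 2 groups (limma, adjusted p = 0.239). Bnip3, a mitophagy receptor, was at 0.36 ± 0.13 in mdx against wt (adjusted p = 0.651), and its relative Bnip3l at -0.18 ± 0.07 in mdx/Ripk3mKO against mdx (adjusted p = 0.34, and -0.11 with the trend of GC content and length removed). Bmf, a BH3-only gene, was low, at 40 to 70 scaled counts, and at 0.51 ± 0.23 in mdx against wt (adjusted p = 0.75). Bad, the BH3-only protein held by 14-3-3 proteins, lay between 179 and 226.

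Downstream of the pore, all 17 genes of the apoptosome, caspases and released proteins were tested and none passed. Htra2, a protease released from mitochondria, was at 877 and 995 for wt, 839 and 837 for mdx, then 1032 and 976 for mdx/Ripk3mKO. Its mdx libraries were the lowest, and the difference of mdx/Ripk3mKO from mdx was 0.26 ± 0.07 (limma, adjusted p = 0.191). The voltage-dependent anion channel Vdac3 was at 0.10 ± 0.06 in mdx against wt (adjusted p = 0.83), and the initiator caspase Casp2 at -0.11 ± 0.07 in mdx/Ripk3mKO against mdx (adjusted p = 0.615). With the trend of GC content and length removed these were 0.06 and -0.06. Dffb, the nuclease that cuts DNA in apoptosis, was at -0.33 ± 0.20 in mdx/Ripk3mKO against wt (adjusted p = 1). Casp9, the initiator caspase of the apoptosome, lay between 208 and 252 scaled counts and its scaffold Apaf1 between 858 and 925. The median log2 difference of this list was 0.01 in mdx against wt and -0.01 in mdx/Ripk3mKO against mdx.

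Of 10 inhibitor of apoptosis genes 5 were tested and none passed. Xiap, which blocks caspases, was at -0.16 ± 0.06 in mdx/Ripk3mKO against mdx (limma, adjusted p = 0.334) and at -0.03 once the trend with GC content and length was removed. Birc6 was at -0.10 ± 0.05, Birc2 at -0.14 ± 0.09 and Birc5, known as survivin, at 0.08 ± 0.06 in the same comparison (adjusted p between 0.458 and 0.666). With the same trend removed Birc6 was at 0.02, Birc2 at -0.07 and Birc5 at 0.13. The sign of Birc6 changed, but the median of all genes in that fit was 0.04, so Birc6 stayed below it.

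Among 12 transcription factors known to act on the family, 10 were tested and none passed. Trp53, which encodes p53 and acts on Bax, Bbc3 and Pmaip1, was at 3550 and 3359 scaled counts for wt, 3057 and 3331 for mdx, then 3443 and 3624 for mdx/Ripk3mKO. Its mdx libraries were the lowest of the 6. The difference of mdx/Ripk3mKO from mdx was 0.15 ± 0.06 for Trp53 (limma, adjusted p = 0.359), -0.18 ± 0.06 for Creb1 (adjusted p = 0.279, and -0.07 without the trend with GC content), 0.09 ± 0.06 for Rela and 0.12 ± 0.09 for E2f1. Without that trend Rela was at 0.04 and E2f1 at 0.07. Of 13 genes that control the stability or activity of members, 12 were tested and none passed. Tpt1, a partner of MCL1, was at 0.12 ± 0.05 in mdx against wt (adjusted p = 0.7). In mdx/Ripk3mKO against mdx the deubiquitinase Usp9x, which stabilises MCL1, was at -0.09 ± 0.05 and the 14-3-3 gene Ywhaz at 0.07 ± 0.05. With the trend of GC content and length removed Usp9x was at 0.05 and Ywhaz at 0.12. The sign of Usp9x changed, but its value was near the median of all genes in that fit, 0.04. The kinase Akt2 was at 0.11 ± 0.09 in mdx/Ripk3mKO against wt (adjusted p = 1). Huwe1, the ubiquitin ligase of MCL1, lay between 15876 and 16927 scaled counts in all libraries.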

How the data were processed

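The deposited table holds a score per gene and library: whole numbers that, from the values, are read counts scaled between libraries and rounded by the authors. Per the submitters' processing notes, Trimmomatic 0.36, STAR 2.6.1d, featureCounts 1.6.3, DESeq2 1.18.1 and mm10 were used, with no role given. Both mdx columns carry one header, so their numbers are names only. Because the score is not a raw count, limma 3.58.1 (R 4.3.3, statmod 1.5.0) was used on log2(score + 1) with group as the only term over 6 libraries (3 residual degrees of freedom), a variance trend and robust fitting. The 14077 genes that reached a score of 10 in 2 or more libraries were tested, 438 were left out, and Benjamini-Hochberg adjustment ran over all those tested, with a threshold of 0.05. Errors are moderated standard errors unless SD is written, and log2(score + 1) understates changes of low genes. The divisors of the scaling, 0.87 to 1.21, were estimated from whole numbers that are skipped or doubled in each column, and scores times divisors gave the depths and counting errors. Exon lengths and GC content came from GENCODE M21. Each BH3 stretch was the only match in its protein to a pattern written for the cores of this family, which was widened once because Bak1 had no match at first. All members are named; from each other list, up to 4 genes with the smallest p are named by rule. Bad, Casp9, Apaf1 and Huwe1 fall outside the rule and were chosen for their roles after their values were seen. The promoters shown were also chosen then. The members and lists were chosen with earlier results of these data known.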

Additional observations from a re-analysis of the deposited data

How the results depend on the processing

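No member passed the adjusted threshold under any of the 16 alternatives (pseudocounts 0.5 and 5, other filters and scalings, no variance trend or robust fitting, only the groups compared, each library left out, GC content and length removed, replicate block), and the lowest adjusted p was 0.144. The 7 values with an unadjusted p under 0.05 kept their sign in all of them, but did not all keep such a p by limma. Without variance trend and robust fitting, 0 of 10 members had one in mdx against wt and 3 in mdx/Ripk3mKO against mdx. With GC content and length removed these counts were 2 and 4, with Bid replacing Bcl2 in mdx against wt. Other pseudocounts, filters and scalings left them at 2 and 5, with Mcl1 replacing Bcl2 in mdx against wt under quantile normalization. The counts also moved where a library was left out. They are not given for those fits, in which 1 group rests on 1 library. The replicate block, possible for wt and mdx/Ripk3mKO only since the mdx columns carry no numbers, gave 0 members and 0 of all genes called. Library 1 minus library 2 in those groups had a correlation of -0.00488 over 11027 genes. This value cannot tell whether libraries of the same number share more than that number. Where a library was left out, the lone one was assumed to vary like the other groups.

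Of the other values 14 changed sign at least once, the largest of them 0.149 in size (Bbc3, mdx against wt). Leaving out single libraries in mdx against wt gave -0.052 to 0.043 for Bcl2l1, -0.011 to 0.014 for Bcl2l2, -0.14 to 0.047 for Bcl2l11, -0.055 to 0.21 for Pmaip1, -0.32 to 0.020 for Bbc3 and -0.12 to 0.021 for Bak1. For mdx/Ripk3mKO the same gave, against mdx, -0.029 to 0.066 for Bcl2l2, -0.14 to 0.24 for Bcl2l11 and -0.24 to 0.064 for Pmaip1. Against wt it gave -0.086 to 0.022 for Mcl1, -0.028 to 0.068 for Bcl2l2, -0.19 to 0.20 for Bcl2l11, -0.17 to 0.14 for Pmaip1 and -0.0057 to 0.29 for Bbc3. Quantile normalization gave 0.00032 for Bcl2l1 and -0.0073 for Bcl2l2 in mdx against wt, and -0.0017 for Bcl2l11 in mdx/Ripk3mKO against wt. Equal library totals gave -0.0048 for Bcl2l2 and -0.0074 for Bcl2l11 in those comparisons. Removal of GC content and length gave 0.0035 for Bcl2l1 in mdx against wt. For Pmaip1 it gave 0.017 between mdx/Ripk3mKO and mdx and 0.042 between mdx/Ripk3mKO and wt. The medians of all genes in that fit were -0.023, 0.038 and 0.016 in these comparisons, in the same order. The cause of the changes of sign was not tested.

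Counts over all genes moved more. The 29 genes of mdx/Ripk3mKO against mdx became 278 without mdx/Ripk3mKO library 1, 13 and 1 without mdx library 1 and 2, and 2 without either wt library. They became 18 with a minimum of 50, 1 without variance trend and robust fitting, 2 with only those groups and 19 with GC content and length removed. The 1 gene of mdx against wt became 103 without either mdx/Ripk3mKO library or with only those groups, and 0 without any other library. The 0 genes of mdx/Ripk3mKO against wt became 20 without mdx/Ripk3mKO library 2. The 11 genes of the F-test became 203 and 112 without mdx/Ripk3mKO library 1 and 2, 1 without either mdx library, 1 and 2 without wt library 1 and 2, 1 with a minimum of 50 and 1 without variance trend and robust fitting. Depth limits the low genes most, with a counting error of 8.74% for Bcl2 against 2.66% for Bax.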
